A study of Homo sapiens with 4 samples.

Results

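High and low culture density were compared in H9 human embryonic stem cells in unsupplemented medium, with 1 expression array at each density. A gene entered when at least 1 probe named for it had a detection p-value under 0.01 on both arrays. That p-value is the estimated fraction of negative-control probes with more signal. The rule kept 8942 genes, against 10457 genes with a probe detected on at least 1 of the 4 arrays of the series and 20037 genes with a named probe on the array.

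H9 is an established line of human embryonic stem cells, here grown on matrigel, a basement membrane extract, in E8, a defined serum-free medium that was renewed each day. The high-density culture (HD) was above 90% confluence and the low-density culture (LD) below 70%. Both were in normal E8 medium (ctrl), carried no genetic change that the labels give, and were collected on day 2. The other 2 arrays of the series carried cultures of both densities with 20 mM additional sodium bicarbonate (bicarb), and they are used only where the density difference is set beside that in control medium. The title of the series asks about acidification of the medium at high density, and no pH value was analysed here. Each condition was measured in 1 culture on 1 array, so the arrays hold no replicate spread and none of the differences below was tested.

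Pluripotent stem cells divide quickly, rely on glycolysis and export lactate and acid into the medium. Ribosome production, DNA replication and sterol synthesis are programs of growing cells and are driven in part by MYC, E2F and SREBP factors, whereas p53 and its target p21 restrain division after stress. Contact between cells and cell shape are read by the YAP and TEAD pathway, the supply of insulin and nutrients by FOXO factors, and the supply of oxygen by HIF.

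Of 47293 probes, 14710 (31.1%) were detected at high density and 14878 (31.5%) at low density, and the median intensities before normalization were 162.7 and 166.6. The 8 markers fixed for pluripotent cells were detected on both arrays. Of 5 primitive streak and mesoderm markers and 4 blood and endothelium markers, 0 were detected on either array. Among 4 neuroectoderm markers NES was detected on both arrays, and PAX6, SOX1 and SIX3 on neither. Among 5 trophoblast and amnion markers GABRP was detected, at a normalized log2 intensity of 7.49 at high and 6.66 at low density. Among 5 endoderm markers FOXA2 was detected at low density only. Among 5 fibroblast markers THY1 and COL1A1 were detected on both arrays, and COL3A1, DCN and LUM on neither. In RNA of a whole culture, fewer cells of a type and less RNA per cell cannot be told apart.

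Most genes stood within a narrow range of each other on the 2 arrays. Levels below are normalized log2 intensities, and a difference is the level at high density minus the level at low density, so that a log2 difference of 1 is 2-fold. The median difference over the 8942 genes was 0.01 with a standard deviation across genes of 0.54, and 6808 genes (76.1%) lay within 1.5-fold. At least 2-fold higher at high density were 339 genes (3.79%), and at least 2-fold lower were 250 genes (2.8%). With array medians set equal in place of quantiles the counts turned to 264 higher and 361 lower, and on second probes of 1886 genes to 54 and 97. Beyond 4-fold there were 17 genes on the higher side and 6 on the lower, and beyond 8-fold 3 and 0. Large differences were most frequent among genes of moderate brightness. Of 4016 genes with a mean level between 7 and 9, 10.6% were at least 2-fold apart. The share was 1.23% of 1139 genes at 11 or above and 0.883% of 793 genes under 7. That last share is held down by the entry rule, because the dimmest detected levels were 6.41 at high and 6.38 at low density. The background offset also pulls differences there toward 0.

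**Figure D1:**
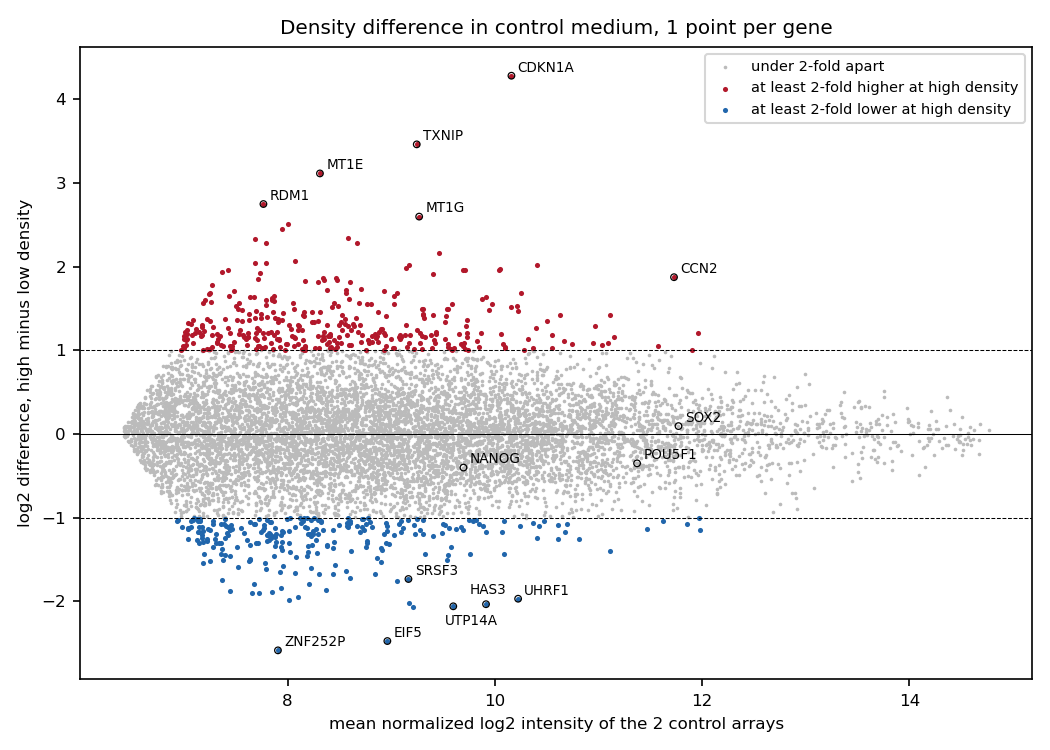
Density difference of each of the 8942 genes (vertical axis, log2 of high over low density) against its mean normalized log2 intensity on the 2 control arrays (horizontal axis). Red and blue points are the 339 genes at least 2-fold higher and the 250 at least 2-fold lower, dashed lines mark 2-fold, and CDKN1A stands farthest from 0 at 4.28 while POU5F1, NANOG and SOX2 lie near it.

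The gene farthest apart was CDKN1A, which encodes the cyclin-dependent kinase inhibitor p21. Its level was 12.30 at high density and 8.02 at low density, a difference of 4.28 or 19.4-fold. A further CDKN1A probe was not detected on either array, at 4.65 and 4.74. TXNIP, an inhibitor of thioredoxin that also limits glucose uptake, stood at 10.98 and 7.52, a difference of 3.46. Metallothioneins are small proteins that bind zinc and copper, and their probes can bind transcripts of other family members. MT1E was at 9.87 and 6.75 and MT1G at 10.57 and 7.97, differences of 3.11 and 2.60. RDM1, named for a motif of the repair protein RAD52, stood at 9.14 and 6.39, and the secreted glycoprotein gene OVGP1 at 9.17 and 6.72. At low density the RDM1 probe was barely above the dimmest detected probe of that array, at 6.38. On the lower side among genes with 1 detected probe, the pseudogene ZNF252P stood at 6.61 at high and 9.20 at low density, a difference of -2.59. HAS3, which makes the matrix sugar hyaluronan, was at 8.90 and 10.93 (-2.03), and PAFAH1B1, a regulator of the motor protein dynein, at 8.16 and 10.19 (-2.03). CCKBR, a receptor for gastrin and cholecystokinin, was at 7.01 and 9.004 (-1.99). UHRF1, which brings the maintenance DNA methyltransferase to replicated DNA, was at 9.24 and 11.21 (-1.97), and a second UHRF1 probe, not detected at high density, was at 5.02 and 7.13. EXOSC4, a subunit of the RNA exosome, stood at 6.78 and 8.68 (-1.90).

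Genes with several probes give a repeated reading of the difference within the 2 arrays. They were hybridised with the same RNA on the same array, so their disagreement holds no variation between cultures. Of the 8942 genes, 7056 had 1 probe detected on both arrays, 1886 had at least 2 and 230 at least 3, up to 5. Across the 1886 genes the differences of the brightest and the second brightest probe had a Pearson correlation of 0.56 and a Spearman correlation of 0.52, and 66.9% shared their sign. The difference between both probes of a gene had a standard deviation of 0.50, nearly that of the brightest probe's own density difference, 0.51. The correlation was 0.61 for the 1047 genes with both probes at a level of at least 8 and 0.50 for the other 839. These are correlations across genes, which are not independent replicates.

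Agreement grew with the size of the difference. Where the brightest probe was within 1.5-fold, the second had the same sign in 931 of 1492 genes (62.4%). Between 1.5-fold and 2-fold the signs agreed in 240 of 291 genes (82.5%), between 2-fold and 4-fold in 84 of 97 (86.6%), and beyond 4-fold in 6 of 6. Across all 1886 genes the second probe had the larger spread, with a standard deviation of 0.56 against 0.51 for the brightest. Among genes picked for a large difference on the brightest probe, the second usually read a smaller one. In the class of 2-fold to 4-fold the second probe's median difference in the direction of the first was 0.77. It was itself at least 2-fold apart the same way in 29 of 97 genes. A smaller second reading is built into picking genes by the size of the first. Counts on the second probe differed between both directions. Of 64 genes at least 2-fold higher on the brightest probe, 18 were so on the second and 12 had the opposite sign there. Of 39 genes at least 2-fold lower, 15 were so on the second and 1 had the opposite sign. These shares were not compared by a test.

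**Figure D2:**
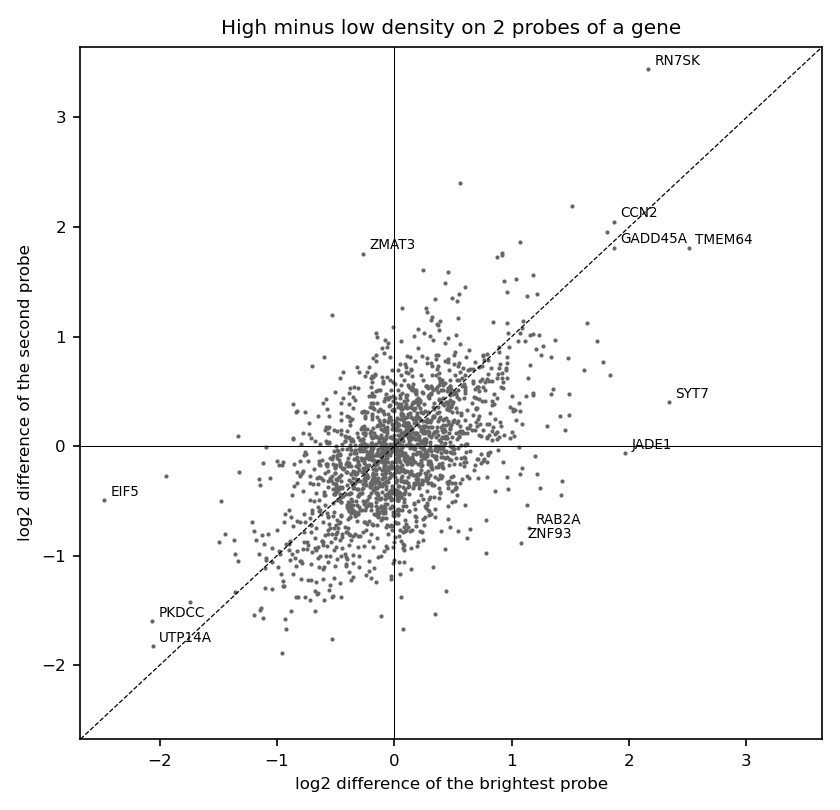
Density difference of the brightest probe (horizontal axis, log2) against that of the second brightest probe (vertical axis, log2) for the 1886 genes with at least 2 probes detected on both arrays, with the line of equality dashed. CCN2, GADD45A, PKDCC and UTP14A lie far out near the line. RN7SK lies far out above it (2.16 and 3.44) and TMEM64 below it (2.51 and 1.81). EIF5, SYT7, JADE1, ZMAT3, RAB2A and ZNF93 lie far from the line.

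Among genes read by several probes, those standing highest at high density on both included RNA, matrix, stress and metabolic genes. RN7SK is the 7SK RNA, which holds the elongation factor P-TEFb inactive, and stood at 10.54 and 8.38 on its brightest probe, with differences of 2.16 and 3.44 on its 2 probes. CCN2, a matricellular protein and a classic target of YAP and TEAD, stood at 12.67 at high and 10.79 at low density, with differences of 1.87 and 2.05. GADD45A, a stress sensor induced by p53, stood at 9.27 and 7.41, with 1.87 and 1.81. CCNG1, the p53-induced cyclin G1, was at 12.57 and 11.36, with 1.21 and 1.39. The membrane protein gene TMEM64 stood at 9.26 and 6.75, with 2.51 and 1.81, and the ankyrin repeat gene ANKRA2 at 9.51 and 7.70, with 1.81 and 1.96. A pair of amino acid breakdown enzymes was in this group, AASS of lysine catabolism at 10.91 and 9.40, with 1.51 and 2.19, and ALDH6A1 of valine catabolism at 9.68 and 8.50, with 1.18 and 1.56. The antiproliferative gene BTG3 read 1.13 and 1.37, and WDR33, which recognises the polyadenylation signal, 1.64 and 1.12. RSRC2 read 1.09 and 1.14.

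The lowest genes on both probes were led by UTP14A, a factor of small ribosomal subunit assembly, at 8.57 at high and 10.63 at low density, with differences of -2.06 and -1.83. PKDCC, a secreted tyrosine kinase, was at 8.18 and 10.24, with -2.07 and -1.60. The solute carrier SLC43A3 was at 6.498 and 8.24, with -1.74 and -1.43, and the paraspeckle protein gene PSPC1 at 8.08 and 9.44, with -1.36 and -1.33. Several of the others act in RNA modification, splicing, protein turnover or the cell cycle. METTL1, a tRNA methyltransferase, read -1.14 and -1.48, SNRNP25 of the minor spliceosome -1.10 and -1.29, and the proteasome activator PSME3 -1.12 and -1.57. TFDP1, the DNA-binding partner of E2F factors, stood at 9.69 and 10.80, and its 2 probes read -1.11 and -1.12. DENND2B (-1.20 and -1.55), ZNF232 (-1.15 and -1.49), PIERCE1 (-1.34 and -1.05) and the kinase gene MAPK7 (-1.05 and -1.06) completed the group. The genes of both groups were picked for agreement between their probes, so that agreement is no support for them.

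**Figure D3:**
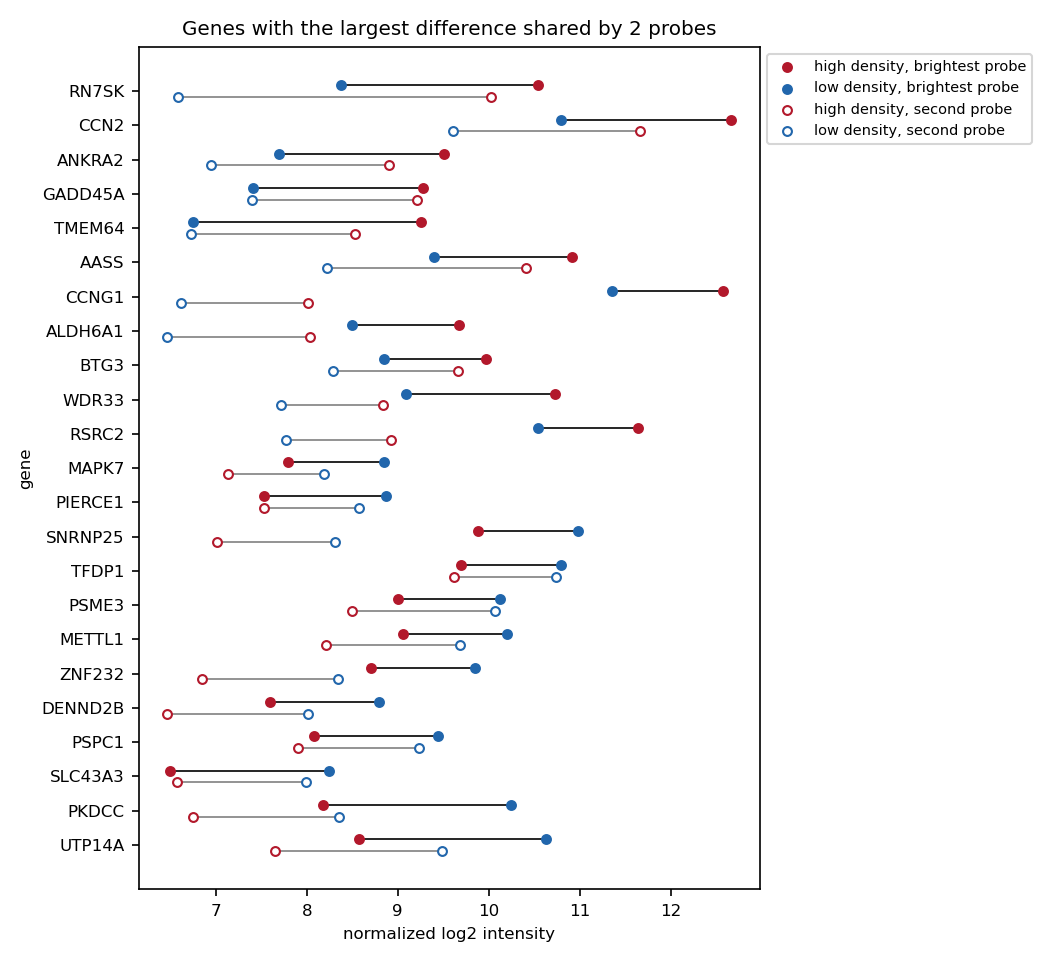
Normalized log2 intensity (horizontal axis) at high density (red) and low density (blue) for 11 of the 12 highest and for the 12 lowest genes by the smaller difference of their 2 brightest probes, with filled points for the brightest and open points for the second probe. Both probes of a gene point the same way by the choice of genes, and the lines joining the points are the differences, from 3.44 for the second probe of RN7SK to -2.07 for PKDCC.

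Other genes showed how far a reading can rest on its probe. EIF5, a translation initiation factor, had a difference of -2.47 on its brightest probe (7.73 and 10.20) and of -0.50 on its second. JADE1 stood at 11.03 and 9.07 (1.97), and its further probes read -0.07 and 1.21. For ZMAT3, a p53 target that binds RNA, the brightest probe read -0.26 (11.51 and 11.78) and the other 2 read 2.00 and 1.76. SYT7 read 2.34 and 0.40, RAB2A 1.15 and -0.75, and ZNF93 1.08 and -0.88. These 6 genes were chosen because their probes disagreed most, and which transcripts each probe reads was not analysed here.

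Gene lists were read against all measured genes, of which 12% stood 1.5-fold or more above their low-density level and 11.8% 1.5-fold or more below it (median 0.01). A list was read as standing apart when its median was at least 0.3 from 0. Of 58 lists with at least 3 measured genes, 16 did. In brackets after a gene stand its level at high density, its level at low density and the log2 difference, in that order, or the difference alone.

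Targets of p53 stood above 0 as a group. Of 34 listed genes 24 were measured, 16 of them at least 1.5-fold higher and 1 lower (median 0.93). After CDKN1A the largest differences were those of PHLDA3, an inhibitor of AKT (8.71 at high and 6.66 at low density, 2.05), and GADD45A. The exception was TP53I3, a quinone oxidoreductase, at 7.13 and 9.08 (-1.95), although its second probe read -0.27. By role, 4 of 5 targets of metabolism and secretion were higher (median 1.01), and 7 of 10 targets of cell death (median 0.87). On second probes the median was -0.09 for 4 of the death targets and 0.82 for 8 members of the whole list. In the BCL2 family of death regulators, 5 of 15 measured genes were higher and 1 lower (median 0.24). On the second probes of 5 members the median was -0.26. The highest member was BNIP3 (1.43), which is also listed as a hypoxia target. The p53-induced members PMAIP1 and BBC3 were among the higher ones, at 11.73 and 10.57 (1.16 and 1.01 on its 2 probes) and at 8.44 and 7.55 (0.90).

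Genes of S phase and of mitosis stood on different sides of 0. Of 63 measured genes of DNA replication, 18 were at least 1.5-fold lower at high density and 1 was higher (median -0.31). Beside UHRF1 the lowest were GINS3 of the replicative helicase (7.67 and 9.24, -1.57), TIPIN of the fork protection complex (6.63 and 8.07, -1.44) and the helicase subunit MCM5 (10.18 and 11.44, -1.26). A mixed role of regulators, UHRF1 among them, stood lowest by role, with 5 of 9 lower and a median of -0.68. Enzymes of nucleotide supply had 1 of 5 lower and a median of -0.11, but on the second probes of 2 members the median was -0.85. RRM2 of deoxynucleotide synthesis was not among these 5, because it was detected at low density only (at least 4.57-fold lower at high density). Of 60 measured genes of G2 and mitosis, 16 were at least 1.5-fold higher and 0 lower, although the median was 0.14. They were led by INCENP of the chromosomal passenger complex (8.68 and 7.23, 1.45), the centrosome kinase NEK2 (11.03 and 9.76, with 1.27 and 0.91 on its 2 probes), the kinetochore protein NUF2 (9.31 and 8.13, 1.18) and ECT2 of cytokinesis (11.06 and 10.03, 1.03). Within this list, 6 of 16 kinases and cyclins and 8 of 30 spindle and kinetochore genes were higher, against 2 of 14 genes of mitotic exit and cohesion. Among 13 genes of the G1 machinery the median was 0.49. Its inhibitors stood out, with CDKN1C (p57) at 7.91 and 6.54 (1.37) and CDKN3 at 9.88 and 9.07 (0.81) beside CDKN1A, and the pocket protein gene RBL2 stood at 8.37 and 7.57 (0.79).

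Promoters were searched for an element known for each of 9 programs, in windows from 250 bases before to 50 bases after the start of transcription, taken from RefSeq on GRCh38.p14 for 27305 genes, of which 7352 were measured. The E2F site was written TTTNNCGC and the cell cycle homology region, through which the DREAM complex represses mitotic genes, TTTGAA, and both strands were read. The E2F letters were in 26 of 55 promoters of measured replication genes (47.3%), against 11.1% of measured genes with a promoter and 6.9% of all promoters, and the homology letters in 37 of 53 promoters of G2 and mitosis genes (69.8%), against 9.13% of measured genes and 15.4% of all. Within each list, members with and without the letters had similar medians. The median difference was -0.31 in the 26 replication genes with the E2F letters and -0.39 in the 29 without, and 0.12 in the 37 mitotic genes with the homology letters and 0.07 in the 16 without. Of all genes at least 1.5-fold lower, 12.6% held the E2F letters, against 10.9% of those within 1.5-fold. A match of letters is a description and not a site of binding. Other elements were searched in the same windows. The amino acid response core TTGCNTCA was in 1 of 24 promoters of ATF4 targets (4.17%), against 2.38% of measured genes and 3.34% of all promoters. The sterol element TCACNCCAC was in 1 of 19 promoters of cholesterol synthesis genes, against 1.10% and 1.15%. The core of the metal response element, TGCACNC or TGCGCNC, was in the promoter of MT1X, the 1 measured metallothionein with a promoter here, and in 39.5% and 29.3%. Shown here are the promoters of UHRF1 (chr19:4909251-4909550, + strand, the first of its 3 starts) and of the mitotic kinase PLK1 (chr16:23678639-23678938, + strand), which stood at 9.69 at high and 8.71 at low density (0.98) and was chosen after its values were seen. Capitals mark the E2F letters in the former and the homology letters in the latter.
UHRF1: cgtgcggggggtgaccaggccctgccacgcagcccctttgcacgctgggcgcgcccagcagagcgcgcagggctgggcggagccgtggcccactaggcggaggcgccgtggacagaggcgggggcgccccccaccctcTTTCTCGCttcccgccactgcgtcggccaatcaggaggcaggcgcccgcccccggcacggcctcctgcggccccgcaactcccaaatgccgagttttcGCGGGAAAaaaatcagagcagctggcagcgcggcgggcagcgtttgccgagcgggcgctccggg
PLK1: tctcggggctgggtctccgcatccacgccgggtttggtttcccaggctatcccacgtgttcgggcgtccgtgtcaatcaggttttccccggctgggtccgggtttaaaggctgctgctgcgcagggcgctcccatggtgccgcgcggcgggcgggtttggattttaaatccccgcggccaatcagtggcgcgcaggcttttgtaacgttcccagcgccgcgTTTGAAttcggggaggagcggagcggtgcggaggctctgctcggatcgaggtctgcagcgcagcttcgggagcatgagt

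Ribosome production stood on the lower side as a group. Of 96 measured factors of ribosome biogenesis, out of 106 listed, 31 were at least 1.5-fold lower at high density and 1 was higher, with 76 below 0 and a median of -0.42. Factors of the large subunit had a median of -0.51 with 15 of 38 lower, and those of the small subunit -0.39 with 11 of 36 lower. Beside UTP14A and EXOSC4, the lowest were FTSJ3, a methyltransferase of ribosomal RNA (7.71 and 9.05, -1.34), and RRP9 of the U3 particle (7.24 and 8.54, -1.30). Levels of MYC itself, the best-known driver of this program, were 10.07 and 9.88, with 0.19 and 0.12 on its 2 probes. The ribosomal proteins themselves had a median near 0. Among 70 measured genes of the cytosolic ribosome, 5 passed 1.5-fold upward and 2 downward (median 0.06). RPL37 was the highest (8.90 and 7.56, 1.34), and RPS27L, an inducible paralogue known as a p53 target, stood at 12.41 and 11.40 (1.01). RPL14 stood lowest at 12.26 and 12.96 (-0.71), but its second probe read 0.07. Ribosomal protein genes have many processed pseudogenes that their probes may also bind.

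RNA polymerases I and III, which transcribe ribosomal and transfer RNA, had 31 measured genes, of which 7 stood at least 1.5-fold lower and 2 higher (median -0.20). MAF1, a repressor of polymerase III, was itself lower (8.12 and 9.28, -1.17), as were the subunit POLR3B (8.51 and 9.68, -1.17) and the polymerase I activator UBTF (6.61 and 7.73, -1.12). A pair of paralogous polymerase III subunits stood on opposite sides of 0. POLR3GL, the form of differentiated tissues, was at 8.50 and 6.86 (1.63), and POLR3G, the form of pluripotent and transformed cells, was at 11.14 and 11.74 (-0.60). POLR3G was named after its values were seen.

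The E-box CACGTG, to which MYC binds, was in 28 of 80 promoters of measured ribosome biogenesis genes (35%), against 10.7% of measured genes with a promoter and 7.43% of all promoters. The median difference was -0.54 in those 28 genes and -0.38 in the 52 without it. Over all measured genes with a promoter the share was 12.8% among those at least 1.5-fold lower, 9.39% among those at least 1.5-fold higher and 10.6% among the rest. The promoter of UTP14A (chrX:129905914-129906213, + strand) is shown as that of the lowest member, with the E-box in capitals. The letters read the same on both strands.
UTP14A: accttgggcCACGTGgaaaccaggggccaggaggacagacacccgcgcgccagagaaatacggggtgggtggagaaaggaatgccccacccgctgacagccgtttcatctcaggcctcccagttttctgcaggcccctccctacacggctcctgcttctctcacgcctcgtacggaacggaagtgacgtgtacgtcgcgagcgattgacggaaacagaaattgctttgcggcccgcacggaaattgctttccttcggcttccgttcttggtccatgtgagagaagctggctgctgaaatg

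The medians of other lists of RNA handling lay within 0.3 of 0. Of 61 measured splicing factors, 15 were at least 1.5-fold lower and 3 higher (median -0.13). The SR proteins, which bind exons and guide splice site choice, had 6 of 15 lower and a median of -0.41. SRSF3 stood at 8.30 and 10.03 (-1.73), SRSF7 at 8.61 and 10.05 (-1.44) and SRSF10 at 7.49 and 8.90 (-1.41), and the core spliceosome gene SNRPD3 at 6.48 and 7.91 (-1.43). The median of 25 core spliceosome genes was -0.11, with 4 lower. CLK1, a kinase that phosphorylates SR proteins, was higher (8.92 and 7.89, 1.03), and was named after its values were seen. In cleavage and polyadenylation, 3 of 17 genes were higher and 2 lower (median -0.02). Its members went to both extremes, with PCF11 at 6.71 and 8.61 (-1.90) against RBBP6 at 8.44 and 7.05 (1.39) and WDR33. Of 50 nuclear transport genes 7 were lower and 2 higher (median -0.19), and the nucleoporin SEH1L was the lowest (8.83 and 10.27, with -1.44 and -0.80 on its 2 probes).

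Translation and the mitochondrion gave smaller shifts. Of 49 translation initiation factors 4 were at least 1.5-fold lower and 2 higher (median -0.02), and EIF5 was the lowest. Cytosolic tRNA synthetases had a median of -0.10, with 3 of 18 lower, led by FARSA (8.73 and 9.73, -0.998), and mitochondrial ones -0.18, with 2 of 15 lower. Mitochondrial ribosomal proteins had 13 of 76 lower and 3 higher, with 54 below 0 and a median of -0.22. MRPL1 stood at 8.22 and 9.60 (-1.38), MRPL55 at 8.98 and 9.85 with -0.88 and -1.50 on its 2 probes, and MRPS25 on the other side at 8.89 and 7.44 (1.45). Respiratory chain subunits, by contrast, had 2 of 69 higher and 3 lower (median 0.07), and 0 of 17 ATP synthase genes passed 1.5-fold either way.

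Proteasome subunits stood on the lower side as a group. Of 31 proteasome subunits 8 were at least 1.5-fold lower and 0 higher (median -0.32). On the second probes of 10 members the median was -0.13, within 0.3 of 0. The cap that receives ubiquitinated proteins had 6 of 16 lower (median -0.40) and the proteolytic core 2 of 15 (-0.14). PSMC4, an ATPase of the cap, was the lowest at 7.36 and 8.67 (-1.31). Chaperones and quality control genes of the endoplasmic reticulum had 19 of 23 below 0 and a median of -0.30, although 3 were at least 1.5-fold lower and 2 higher. DERL2 read -1.32 on its brightest probe and -0.23 on its second. The cytosolic heat shock list had 1 of 16 lower and a median of -0.14. Of 13 chaperonin and prefoldin genes 2 were lower and 1 higher (median -0.0023), with CCT5 at 7.28 and 8.31 (-1.03), CCT3 at 11.47 and 12.48 (-1.003, but -0.13 on its second probe) and VBP1 at 11.41 and 10.61 (0.80). Lysosome and autophagy genes went the other way, with 10 of 33 higher and 3 lower and a median of 0.35. MAP1LC3A (9.36 and 7.97, 1.39) and GABARAPL1 (10.01 and 8.62, 1.39), which coat autophagosomes, and ATG5 (8.92 and 7.78, 1.14) were among the highest. LAMP2 read 1.43 on its brightest probe, and its other 4 detected probes read from -0.37 to 0.53. The vacuolar proton pump had 3 of 16 lower and 1 higher (median -0.03).

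Genes of cholesterol synthesis stood on the lower side as a group. Of 21 genes of cholesterol synthesis and its regulation, 6 were at least 1.5-fold lower and 0 higher (median -0.30). The enzymes of the pathway alone had a median of -0.44. LSS, which closes the sterol ring, stood at 9.79 and 11.03 (-1.24), ACAT2 at 11.37 and 12.36 with -0.99 and -1.10 on its 2 probes, and SREBF1, a master regulator of lipid synthesis, at 8.12 and 9.08 with -0.96 and -1.89. In fatty acid synthesis 2 of 16 were lower and 2 higher (median -0.11), and the desaturase FADS2 was at 7.47 and 9.14 (-1.67). Synthesis of purines, pyrimidines, polyamines and one-carbon units had 6 of 28 lower and 1 higher (median -0.20). By role, 4 of 9 one-carbon genes were lower and 1 higher, against 1 of 14 purine genes lower and 0 higher. MAT2A, which makes S-adenosylmethionine, stood at 11.32 and 12.39 (-1.07), ornithine decarboxylase ODC1 at 10.56 and 11.51 (-0.96) and CTPS1 of cytidine nucleotide synthesis at 10.07 and 10.92 (-0.86).

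FOXO and insulin signalling genes had 8 of 18 at least 1.5-fold higher and 2 lower (median 0.43), but on the second probes of 6 members the median was -0.16. The targets alone had 7 of 11 higher and a median of 1.01, and the factors and kinases -0.02. KLHL24 was at 9.81 and 7.53 (2.29) and SESN1, a stress-induced inhibitor of mTORC1 that is also a p53 target, at 9.42 and 7.70 (1.72). TXNIP and GADD45A are in this list too. Targets of ATF4 had 6 of 28 higher and 3 lower (median 0.08). Their transcription factors and feedback genes stood at a median of 0.57 and their amino acid enzymes at 0.02. The lipoprotein receptor VLDLR was at 9.39 and 7.56 (1.84), and the glycine transporter SLC6A9 at 7.27 and 8.61 (-1.35). Among 19 amino acid transporters 4 were lower and 2 higher (median -0.20), and the glutamine transporter SLC38A1 stood at 10.42 and 11.81 (-1.40).

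Hypoxia targets outside glycolysis had 7 of 16 measured genes at least 1.5-fold higher and 0 lower (median 0.51). FAM162A was at 9.79 and 8.08 (1.71), DDIT4, an inhibitor of mTORC1, at 11.09 and 9.41 (1.68), the mitophagy receptor BNIP3 at 11.35 and 9.92 (1.43) and ERO1A of disulfide formation at 7.83 and 6.52 (1.31). Glycolysis and lactate genes did not stand apart, with 2 of 25 higher and 2 lower and a median of 0.04. The enzymes of the pathway had a median of 0.17, with PGK1 at 12.13 and 11.46 (0.67, and 0.29 on its second probe) and ENO2 at 10.38 and 9.72 (0.66), whereas their regulators and lactate exporters had a median of -0.32. Of 33 listed genes of acid and bicarbonate transport and sensing, 11 were measured. SLC4A7, a sodium bicarbonate cotransporter, was the member past 1.5-fold, at 11.23 and 10.11 with 1.11 and 0.96 on its 2 probes. The core of the hypoxia element, ACGTG, was in 9 of 13 promoters of these hypoxia targets (69.2%), against 27.8% of measured genes with a promoter and 21.6% of all promoters, and those 9 had a median of 0.89, against 0.51 for the 4 without it. The core overlaps the E-box CACGTG. The promoter of BNIP3 (chr10:131981874-131982173, - strand) holds the core on both strands within the same 6 bases, in capitals.
BNIP3: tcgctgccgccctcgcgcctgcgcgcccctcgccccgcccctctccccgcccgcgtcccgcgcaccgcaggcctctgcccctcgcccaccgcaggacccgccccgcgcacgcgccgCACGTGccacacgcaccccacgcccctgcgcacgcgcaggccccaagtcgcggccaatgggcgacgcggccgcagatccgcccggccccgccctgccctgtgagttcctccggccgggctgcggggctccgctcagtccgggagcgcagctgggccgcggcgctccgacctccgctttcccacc

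Immediate early genes, which respond to growth factors and stress within minutes, had 10 of 17 measured members at least 1.5-fold higher and 0 lower (median 0.62). On the second probes of 2 members the median was -0.28. JUN, a subunit of AP-1, stood at 8.85 at high and 6.52 at low density (2.33), and EGR1 at 8.93 and 6.65 (2.28). ATF3 was at 9.25 and 7.73 (1.53), and PPP1R15A, which reverses the block of translation under stress, at 9.53 and 8.28 (1.25). Low-density levels of JUN and EGR1 were close to the dimmest detected probe. Feedback genes of ERK and its ETS factors had 2 of 11 higher and 0 lower (median 0.42), but on the second probes of 6 members the median was -0.00015. The higher ones were ETV5 (10.24 and 9.23, 1.01, with 0.32 on its second probe) and SPRY2 (10.35 and 9.49, 0.86). The CArG box, the site of serum response factor, was in 2 of 13 promoters of the immediate early genes (15.4%), against 1.13% of measured genes with a promoter and 1.29% of all promoters. That of EGR1 (chr5:138465229-138465528, + strand) holds 2, in capitals.
EGR1: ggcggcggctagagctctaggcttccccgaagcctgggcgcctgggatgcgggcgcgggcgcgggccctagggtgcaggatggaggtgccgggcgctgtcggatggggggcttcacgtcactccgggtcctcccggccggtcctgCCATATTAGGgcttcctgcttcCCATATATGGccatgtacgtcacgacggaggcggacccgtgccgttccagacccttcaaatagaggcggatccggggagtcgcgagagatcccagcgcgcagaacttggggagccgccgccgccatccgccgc

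Targets and regulators of YAP and TEAD had 7 of 21 measured genes at least 1.5-fold higher and 2 lower (median 0.28). CCN2 led them, followed by the kinase NUAK2 (8.92 and 7.58, 1.33), the factor TEAD3 (7.73 and 6.41, 1.32) and STK3, a kinase that restrains YAP (9.98 and 8.79, 1.18). The targets had a median of 0.45 and the regulators a median of 0.16. In the list of actin and its binding proteins 3 of 31 were higher and 0 lower (median 0.06). ACTA2 stood at 8.26 and 6.61 (1.65), ACTA1 at 8.77 and 7.75 (1.03) and TAGLN at 11.78 and 10.88 with 0.91 and 0.54 on its 2 probes. Probes of muscle-type actins can bind transcripts of each other.

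Matrix genes were mixed, with 9 of 43 at least 1.5-fold higher and 3 lower and a median of 0.15. Collagens and laminins had 6 of 24 higher and 0 lower, integrins 0 of 7 either way. THBS1 stood at 7.75 and 6.58 (1.17) and SPARC, which binds collagen, at 10.09 and 9.07 (1.02). On the lower side stood HAS3 and FKBP10, a collagen chaperone, at 6.49 and 8.01 (-1.51). Markers of fibroblasts stood on the higher side as a group, and share members with the actin list, whose median was 0.06. Of 17 listed, 8 were measured, all 8 above 0, 4 of them at least 1.5-fold higher (median 0.58). ACTA2 and TAGLN are among the 8, as are S100A4 (7.51 and 6.598, 0.91) and PDGFRB (8.15 and 7.51, 0.63). Of the 5 markers fixed for fibroblasts, THY1 (12.84 and 12.31) and COL1A1 (8.36 and 8.05) were detected on both arrays and brighter at high density. COL3A1, DCN and LUM were not well above background on either array, with levels from 4.75 to 5.85. The part of such cells in these groups was not tested.

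Junction genes had 3 of 29 at least 1.5-fold higher and 6 lower (median -0.12), and claudins, the strands of tight junctions, took both directions. CLDN3 was at 8.67 and 7.04 (1.63), whereas CLDN7 was at 10.15 and 11.02 (-0.87) and CLDN6 at 10.52 and 11.35 (-0.83). NECTIN3 of adherens junctions stood at 9.81 and 10.60, with -0.80 and -1.05 on its 2 probes.

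The core pluripotency factors were within 1.5-fold. Of 37 pluripotency genes on the array 30 were measured. POU5F1 was at 11.20 and 11.55 (-0.35), NANOG at 9.50 and 9.90 (-0.40) and SOX2 at 11.82 and 11.73, with 0.09 and -0.39 on its 2 probes. Of the 30 measured, 9 passed 1.5-fold downward and 1 upward, with 15 on each side of 0 and a median of -0.09. OTX2 (8.16 and 9.28, -1.12), VRTN (8.70 and 9.58, -0.88) and ZFP42 (11.30 and 12.14, -0.84) were the lowest, and UTF1 (7.67 and 6.48, 1.18) was the highest. DNMT3B, the DNA methyltransferase of early embryos, stood at 12.33 and 13.17, and its 4 probes detected on both arrays read -0.84, -1.10, -0.49 and -1.21. The glycosylase TDG of active demethylation read -0.80 and -0.69 on its 2 probes (10.75 and 11.56). TET1 read 0.92 on its brightest probe (10.35 and 9.42) and -0.15 on its second. In the methylation list of 9 measured genes 4 were lower and 2 higher (median 0.00).

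Signalling lists around pluripotency had members past 1.5-fold on both sides. In the NODAL and activin pathway 3 of 12 were lower and 2 higher (median -0.10), with the inhibitory SMAD7 at 6.89 and 8.38 (-1.49 and -0.88 on its 2 probes) and the NODAL inhibitor LEFTY2 at 6.59 and 7.49 (-0.90). In the BMP pathway 3 of 9 were higher and 2 lower (median 0.50), with the ligand BMP7 at 8.65 and 7.05 (1.61), SMAD6 at 7.59 and 6.42 (1.17) and ID1 at 7.97 and 8.92 (-0.95). The NOTCH list had 4 of 12 higher and 1 lower (median 0.01), with the ligands JAG1 at 8.26 and 6.77 (1.49) and DLL3 at 10.02 and 8.60 (1.42). WNT genes had 3 of 21 higher and 3 lower (median 0.00). Of the 10 measured neuroectoderm genes 2 were higher and 2 lower (median -0.20), with SOX3 at 10.15 and 9.33 (0.83) and TUBB3 at 9.82 and 10.79 (-0.97). In the lists of primitive streak, endoderm and trophoblast 1 gene each was measured, KDR (0.57), FOXA3 (-0.40) and GABRP (0.83), and of 14 blood and endothelium genes 0 were.

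Metal and redox genes split by family. All 4 measured metallothioneins were at least 1.5-fold higher (median 2.16), and included MT1F at 9.24 and 7.52 (1.73). Zinc transporters and sensors had 1 of 10 higher and 2 lower (median -0.01), and the importer SLC39A14 stood at 9.98 and 11.23 (-1.25). Targets of NRF2 and peroxide defence had 6 of 30 lower and 1 higher (median -0.16). The mitochondrial thioredoxin reductase TXNRD2 was at 8.57 and 7.24 (1.34), and the cytosolic TXNRD1 at 9.12 and 10.27 (-1.14, and -0.35 on its second probe). The list of TXNIP, its arrestin-domain relatives and their regulators had 3 measured genes of 8, and TXNIP stood alone on the higher side beside ARRDC2 (7.32 and 7.78, -0.47) and MLX, a partner of the glucose-sensing factor MondoA (6.79 and 7.38, -0.59). The carbohydrate response element that this factor binds, a pair of CACGNG runs 5 bases apart, was in 20 of 27305 promoters (0.07%), that of TXNIP among them (chr1:145996530-145996829, - strand), in capitals.
TXNIP: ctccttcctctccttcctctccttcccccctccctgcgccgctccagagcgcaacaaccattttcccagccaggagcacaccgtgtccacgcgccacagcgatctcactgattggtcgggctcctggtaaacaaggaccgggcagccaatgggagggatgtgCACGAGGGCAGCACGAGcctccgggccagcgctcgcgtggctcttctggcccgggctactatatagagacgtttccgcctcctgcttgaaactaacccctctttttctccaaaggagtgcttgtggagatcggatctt

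Interferon-stimulated genes had 7 of 18 measured members at least 1.5-fold higher and 1 lower (median 0.50). The antiviral tether BST2 was at 10.69 and 8.73 (1.95), the peptide transporter TAP1 at 8.94 and 8.09 (0.85) and IFITM1 at 12.04 and 11.30 (0.74), whereas MX1 was at 7.14 and 8.59 (-1.45). Primary cilium genes had 5 of 23 higher and 1 lower (median -0.14). The BBSome and the ciliary gate held 4 of the higher ones among 9 genes, led by BBS9 (9.57 and 7.84, with 1.73 and 0.96 on its 2 probes) and CEP290 (7.58 and 6.45, 1.13). Of 70 chromatin modifiers 8 were higher and 8 lower (median 0.02). Polycomb genes had 4 of 15 higher and 1 lower and a median of 0.32, with AEBP2 at 9.29 and 7.98 (1.32) and CBX7 at 7.76 and 6.58 (1.18), and the histone chaperone DAXX stood at 8.79 and 9.82 (-1.03).

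**Figure D4:**
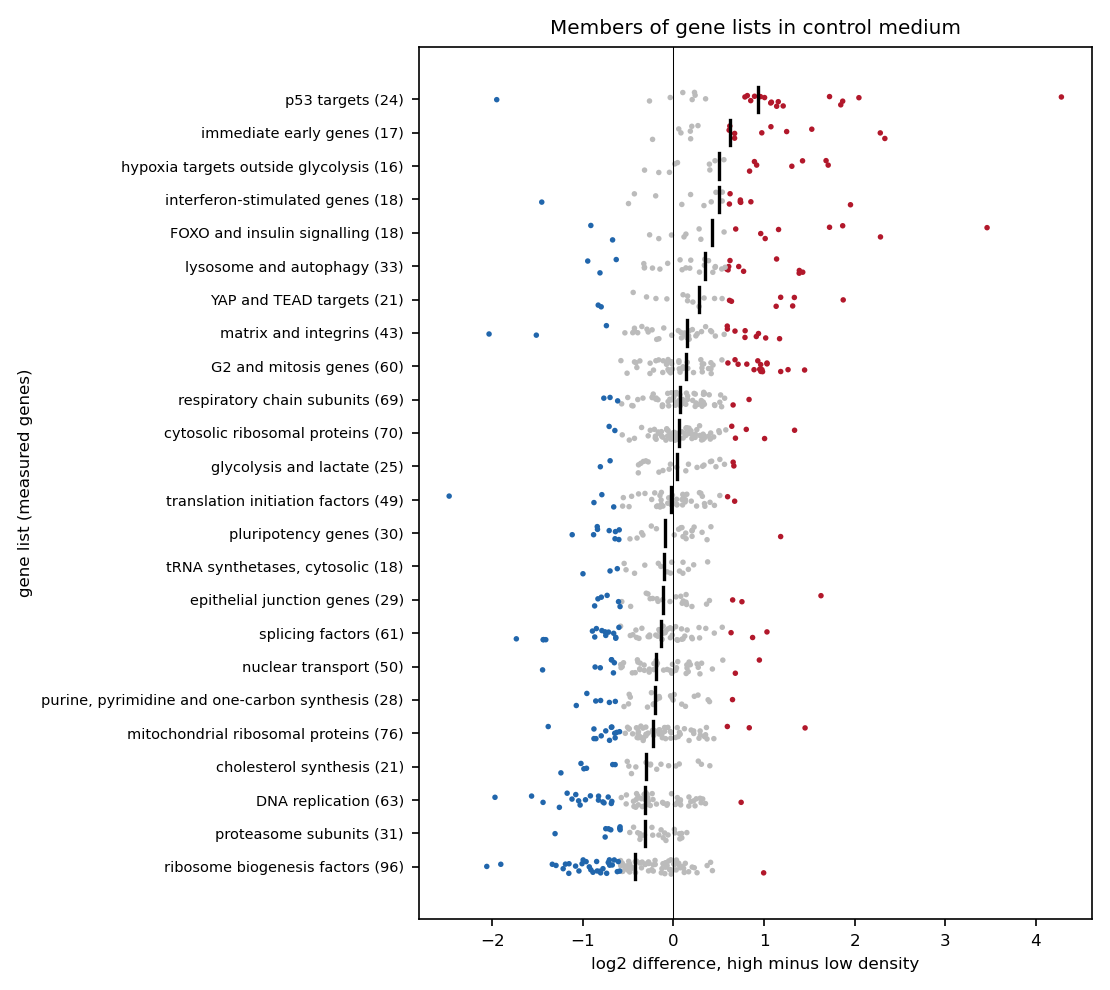
Density difference (horizontal axis, log2 of high over low density) of each measured member of 24 gene lists, with the number measured in brackets and the list's median as a black bar. Red and blue points are at least 1.5-fold higher or lower, and medians run from 0.93 for p53 targets to -0.42 for ribosome biogenesis factors.

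Genes detected at 1 density only were given a lower bound of their fold, from the level on the brighter array and the dim probe's level or the dimmest detected level of the other array, whichever was higher (6.41 at high, 6.38 at low density). At high density only, 520 genes were detected, 54 of them with a bound of at least 2-fold. GDF15, a secreted stress cytokine and p53 target, was at least 29.8-fold higher, PDGFB, a growth factor, at least 8.73-fold, the metallothionein MT2A at least 7.22-fold and the metalloproteinase MMP23B at least 6.14-fold. LPIN1 of lipid synthesis was at least 4.42-fold higher and DDIT3, a transcription factor of the unfolded protein response, at least 4.09-fold. At low density only, 586 genes were detected, 45 with such a bound. FOXA2 was at 9.22 there and at 4.66, not well above background, at high density, at least 7.001-fold lower. NCOA5 was at least 5.84-fold lower, CYREN of DNA end joining at least 5.09-fold, the NODAL inhibitor LEFTY1 at least 4.66-fold, RRM2 of deoxynucleotide synthesis at least 4.57-fold and LCMT2 at least 4.37-fold.

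The same density difference was measured on 2 other arrays, in medium with added bicarbonate. Those arrays share no culture with the control arrays but were normalized together with them. Across 8552 genes detected on all 4 arrays, the differences in both media had a Pearson correlation of 0.58 and a Spearman correlation of 0.54, given as a description. Of 299 genes at least 2-fold higher in control medium, 280 had the same sign with bicarbonate and 117 were again at least 2-fold higher, where 3.44% of the 8843 genes measured in that medium were. Of 248 at least 2-fold lower, 240 had the same sign and 82 were again at least 2-fold lower, against 2.95%. Sizes were smaller there, with medians of 1.21 in control medium and 0.82 with bicarbonate for the former and -1.19 and -0.78 for the latter. A shift toward 0 is built into picking genes by their size in control medium.

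**Figure D5:**
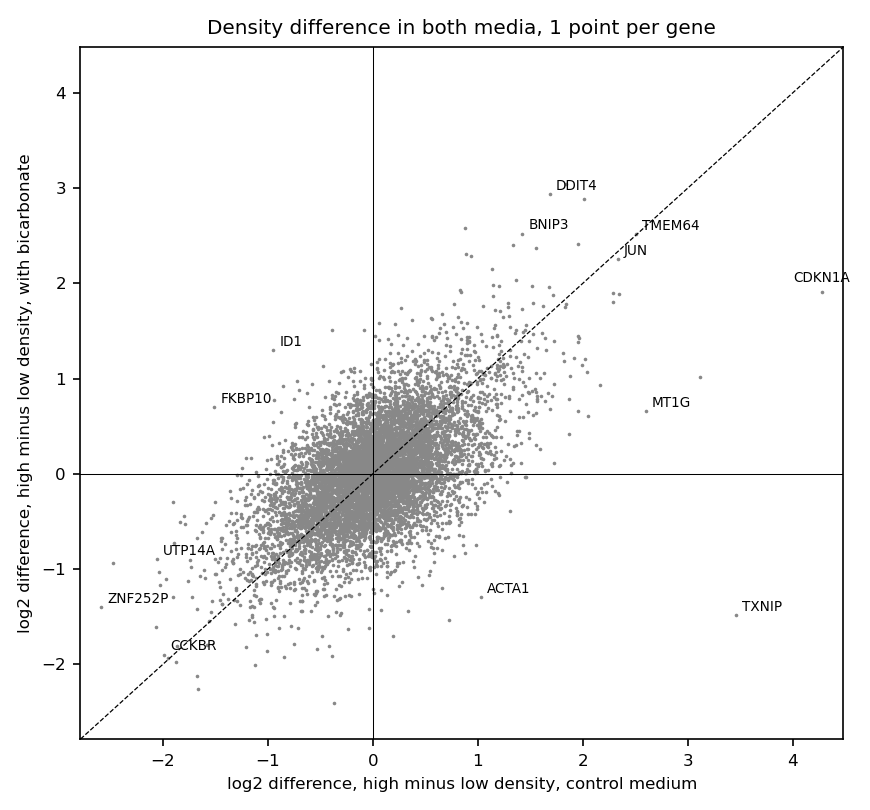
Density difference in control medium (horizontal axis, log2) against that with bicarbonate (vertical axis, log2) for the 8552 genes detected on all 4 arrays, with the line of equality dashed. CDKN1A lies below the line at 4.28 and 1.91, TMEM64 on it at 2.51 in both media, DDIT4 and BNIP3 above it, and TXNIP on the other side of 0 at 3.46 and -1.48.

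Programs differed in how they stood in the second medium. List medians with bicarbonate run over all members measured in control medium, including any not detected with bicarbonate. The median of ribosome biogenesis was -0.42 in control medium and -0.46 with bicarbonate, that of DNA replication -0.31 and -0.43, of the proteasome -0.32 and -0.35, and of interferon-stimulated genes 0.50 and 0.51. Targets of p53 had medians of 0.93 and 0.46, and metallothioneins of 2.16 and 0.54, with CDKN1A at 4.28 and 1.91 and MT1G at 2.60 and 0.66. Immediate early genes had medians of 0.62 and 0.35, though JUN stood at 2.33 and 2.26. Hypoxia targets had the larger median with bicarbonate, 1.16 against 0.51, and so did enzymes of glycolysis, 0.76 against 0.17. The differences between both media were not tested.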

How the data were processed

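Total RNA was made into biotin-labelled cRNA and hybridised to Illumina arrays, per the labels' protocols. The authors deposited probe intensity values with detection p-values, and log2 values whose medians are 6.02 on both arrays. How they made the latter is not given in the sources used here. The p-value steps fit 770 negative controls.

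Intensities of all 4 arrays were corrected and quantile-normalized with neqc (limma 3.58.1, R 4.3.3; offset 16), so changes common to all genes are removed. Differences from these values and from the authors' log2 values correlated at 0.9997. Other steps used Python 3.11.15, numpy 2.4.6 and pandas 2.3.3, with figures by matplotlib 3.10.9. Of 47293 probes, 30098 had 1 gene symbol in the platform annotation, 8 several and 17187 none. A gene took its brightest probe among those detected on both arrays.

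No test was possible with 1 array a group. Members and lists were chosen with earlier results of these data known. Named were the 12 highest and 12 lowest genes on 2 probes, 6 and 6 with 1 probe, 4 per list, the 6 with the most discordant probes, the 6 largest bounds per direction, and POU5F1, NANOG, SOX2, MYC, CDKN1A and TXNIP, of which 1 gene is not reported here. Promoters are RefSeq's. The procedure was tested on simulated data. Alternatives were the background, normalization, detection and probe rules.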

Additional observations from a re-analysis of the deposited data

Results flagged for a closer look

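In 5 of the named genes the density difference was at least 1.5-fold in both media but pointed in opposite directions. Among the 8552 genes detected on all 4 arrays, 894 were at least 1.5-fold apart in both media and 27 of these were opposite. Each value is from 1 array, and the difference between both media was not tested for any of them.

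TXNIP stood at 10.98 at high and 7.52 at low density in control medium, a difference of 3.46, and at 6.48 and 7.97 with bicarbonate, a difference of -1.48. The high-density control array held the highest of its 4 levels and the high-density array with bicarbonate the lowest. ID1, a BMP target that blocks differentiation factors, was at 7.97 and 8.92 in control medium (-0.95) and at 10.42 and 9.12 with bicarbonate (1.30). HES6 of the NOTCH list was at 10.32 and 9.61 (0.71) against 9.53 and 10.19 (-0.66). ACTA1 was at 8.77 and 7.75 (1.03) against 7.10 and 8.40 (-1.30), and its probe may bind other actins. FKBP10 was at 6.49 and 8.01 (-1.51) against 7.52 and 6.83 (0.70).

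Signal was also present in probes with no gene name. Of these, 2607 were detected on both control arrays, 75 of them 2-fold or more above and 60 2-fold or more below their low-density level, together 5.18%, against 6.59% of named genes. What they read was not analysed here.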

How the results depend on the processing

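The main counts were 339 genes at least 2-fold higher and 250 lower. They became 125 and 73 with no background correction, 126 and 88 with a log2 intensity of at least 8 (5663 genes), and 54 and 97 on the second brightest probe of 1886 genes, an alternative chosen after seeing the data. With array medians set equal in place of quantiles the counts were 264 and 361, so 42.2% of the genes past 2-fold were higher, against 57.6%, and the median of all genes was -0.06. An offset of 50 gave 242 and 168, the authors' deposited log2 values 271 and 197, the 2 control arrays normalized alone 340 and 250, the mean of detected probes 316 and 255, and a detection p-value under 0.05 gave 439 and 340. The causes were not tested. Of 16 lists standing apart, 15 kept their sign in the 8 other settings chosen at the outset. The exception was the TXNIP list, at 0.041 with a detection p-value under 0.05. Those of p53 targets, ribosome biogenesis, immediate early, hypoxia, interferon and fibroblast genes stayed at least 0.3 from 0. Of 230 named genes past 1.5-fold, 230 kept their sign and 192 stayed past 1.5-fold in each of these settings that measured them. At a log2 intensity of at least 8, 145 of the 255 named genes measured on both arrays had a value. On second probes the medians of ERK and FOXO genes turned to -0.00015 and -0.16, and single genes to -0.067 (JADE1), -0.88 (ZNF93), -0.75 (RAB2A), -0.14 (HACD3), -0.32 (LAMP2), -0.15 (TET1) and 0.071 (RPL14). No paired analysis was possible because each group holds 1 array, and for the same reason no replicate could be left out. Brightness limits genes under a level of 7, whose differences the detection rule bounds and the offset compresses.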

Other observations

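Small structural RNAs stood on both sides of 0. Of 54 measured, out of 326 on the array, 14 stood 1.5-fold or more above their low-density level and 4 below it (median 0.13). In the 42 nucleolar RNAs the median was 0.13 in control medium and -0.39 with bicarbonate, including any not detected there. SNORA8, a guide of pseudouridylation, stood at 8.66 and 7.07 (1.59), SNORA12 at 8.96 and 7.51 (1.45) and SNORD3A, the U3 RNA, at 10.66 and 9.46 (1.20). Many of these have near-identical copies. Their host transcripts had 3 of 15 higher and 2 lower (median 0.23), among them SNHG8 (9.37 and 8.47, 0.90) and ZFAS1 (11.34 and 10.61, 0.73).

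Of 236 measured genes with a ZNF name, most of which encode zinc finger proteins, 32 stood 1.5-fold or more lower and 17 higher (median -0.05). Beside the pseudogene ZNF252P the lowest were ZNF239 (6.90 and 8.79, -1.89), ZNF480 (7.60 and 9.27, -1.67) and ZNF286A (6.63 and 8.13, -1.50). Histone genes had 3 of 17 lower and 2 higher (median -0.19). The centromeric variant CENPA read 0.96 and 1.04 on its 2 probes (9.52 and 8.56), and H2AX of the DNA damage response stood at 8.74 and 9.52 (-0.78). Tubulins had 2 of 16 higher and 2 lower, with TUBB4B at 11.41 and 12.17 (-0.76), and 5 of 49 keratins were measured, with KRT19 at 9.63 and 10.24 (-0.61). Elongation factors and their modifying enzymes had 2 of 10 higher and 1 lower, with EEF1A2 at 10.63 and 9.73 (0.90).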
